A study of Mus musculus with 5 samples.

Results

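The complement system was followed as 33 genes, chosen by symbol, of the 51912 genes listed for dorsolateral prostate of male mice. The set was picked because Cfb is higher in both libraries labelled Ghr deletion, so the group differences below are a description and carry no test of the set. Every mouse carried loxP-flanked Ghr alleles (Ghrflox/flox) and was given tamoxifen on 5 days (250 mg/kg each day). The prostate was removed 1 month after dosing ended, and the labels give an age of 3 months. The 3 control mice had no Cre, and the 2 mice labelled Ghr deletion also carried 1 copy of a tamoxifen-inducible Cre at the ROSA26 locus (ROSA26Cre-ERT2+/0), which is active in most cell types, so Cre itself and loss of the receptor cannot be told apart. The libraries of these 2 mice are called the deletion-labelled pair below. All 5 libraries are whole tissue, and in such samples fewer cells of a type and less RNA per cell cannot be told apart.

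Complement is a cascade of blood and tissue proteins that marks cells and microbes for removal. The classical pathway starts when C1q binds its target, the lectin pathway starts with MASP proteases, and the alternative pathway runs on factor B and factor D, and all meet at C3. Beyond C3 lie the small peptides C3a and C5a, which attract and activate leukocytes through receptors, and the pore built from C5 to C9. Membrane and soluble regulators stop the cascade on the body's own cells. Liver makes most of the circulating proteins, macrophages make C1q, fat cells make factor D, and epithelial and stromal cells make C3 and factor B locally.

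Libraries held 19517831 to 41553558 expected counts (estimated reads per gene). Ghr, the targeted gene, had 10.1, 11.8 and 13.2 CPM (counts relative to the scaled library size) in control replicates 1, 2 and 3, against 21.5 and 10.2 CPM in the deletion-labelled pair. Here and below values are in replicate order. Its level over the whole gene therefore does not separate the labels, and directions below are those of the labels. Genes that define prostate were close to absent in control replicate 3 and Ghr deletion replicate 1. Pbsn (probasin) had 11.1, 475 and 0.82 CPM in the controls, against 0.045 and 8.76 CPM in the deletion-labelled pair, and Hoxb13 had 0 counts in control replicate 3 and Ghr deletion replicate 1. A sum of 4 seminal vesicle genes was 75380, 40610 and 190.0 CPM in the controls, against 6.60 and 23.8 CPM in the deletion-labelled pair, and the part of this unevenness in the results was not tested. Epithelial genes (Epcam, Cdh1, Krt8, Krt18) were present throughout, at a summed 663 to 943 CPM.

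The members together took 0.0169% to 0.0934% of counts. Of the 33 members, 27 passed the filter on low counts. The other 6 (Masp2, Hc, C6, C8a, C8b and C9) never exceeded 13 counts in a library.

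The 3 most abundant members were the same, in the same order, in every library. Levels between genes are compared in TPM, a measure that divides by transcript length. Cr1l, the main membrane regulator of rodents, was first in all 5 libraries at 20.1, 8.33 and 34.0 TPM in the controls, against 94.96 and 45.5 TPM in the deletion-labelled pair. Serping1, the C1 inhibitor, was second in all 5 (3.48 to 80.3 TPM), and C1s1, a C1 protease, came next in all 5 (2.43 to 41.8 TPM). C3 ranked between 4 and 6. These 4 genes made up 54.1% to 65.4% of the summed TPM of the members. The summed TPM itself ran from 27.1 in control replicate 2 to 394 in Ghr deletion replicate 1, so levels in TPM are set side by side within a library only. At the other end, the pore components C6, C8a, C8b and C9 and the gene for C5 (Hc) stayed at or below 0.15 TPM everywhere. Masp2, a lectin pathway protease, was as low (0 to 0.07 TPM), and the regulator C4bp was at 0 TPM in control replicate 2. The heat map of TPM by library shows these levels.

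**Figure D1:**
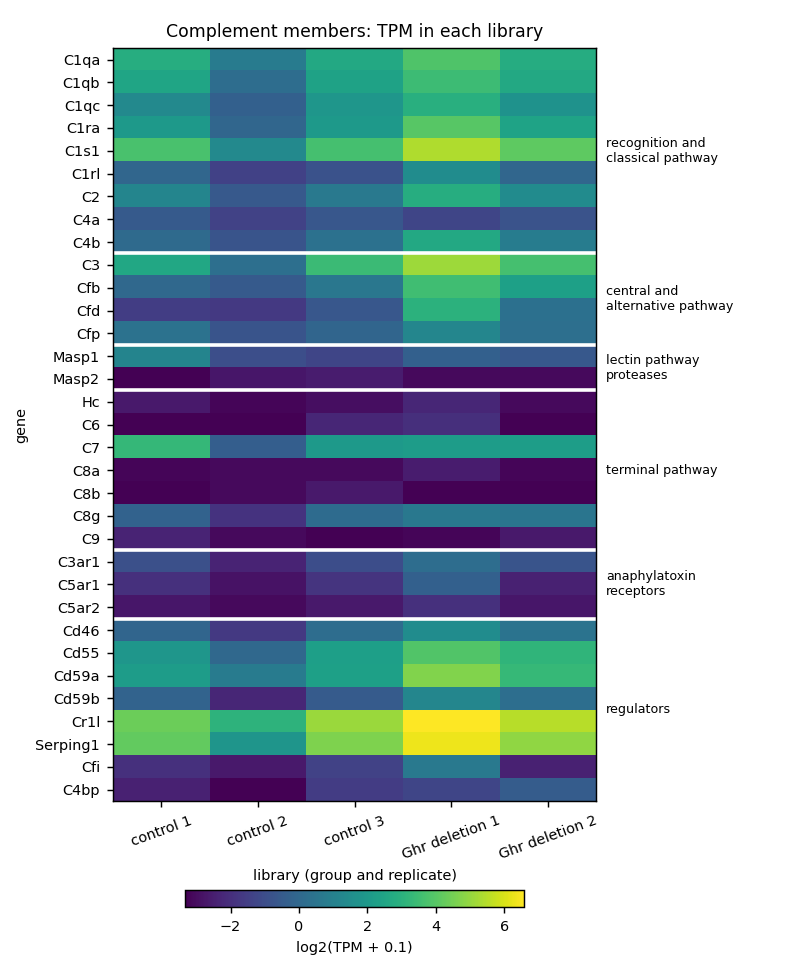
Heat map of log2(TPM + 0.1) for the 33 complement genes (rows, grouped by role) in the 3 control and 2 Ghr deletion libraries (columns). Cr1l and Serping1 are the brightest rows in every library, the pore genes other than C7 and C8g are dark, and control replicate 2 is darker and Ghr deletion replicate 1 brighter over most rows.

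Cfb was higher in both deletion-labelled libraries than in any control. Cfb (ENSMUSG00000090231, chr17:34856374-34862518, GRCm38) encodes factor B, the serine protease of the alternative pathway C3 convertase. It had 5.37, 6.22 and 4.74 CPM in the controls, against 23.4 and 13.8 CPM in the deletion-labelled pair, or 5.44 ± 0.74 (SD, n = 3) against 18.6 ± 6.81 CPM (SD, n = 2). The 3 controls lay within 1.31-fold of each other, and both other libraries lay above all of them. The difference was 3.42-fold (log2 fold change 1.77, SE 0.30). Its values rest on 87 to 215 counts in a control library and on 1032 and 546 counts in the deletion-labelled pair. Cfb was chosen for this pattern, so these values describe it and support nothing further. Relative to C2, its neighbour and the matching protease of the classical pathway, Cfb stood at 0.417, 1.05 and 0.953 in TPM in the controls, against 1.63 and 1.86 in the deletion-labelled pair, so the ratio did not overlap between groups. Relative to Epcam, which marks epithelium, Cfb stood at 0.0378, 0.0653 and 0.0325 in TPM in the controls. It stood at 0.1001 and 0.0754 in the deletion-labelled pair, also without overlap. Both ratios reuse the Cfb values that picked the set and were chosen after the values were seen. They therefore lend no further support.

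Factor D, encoded by Cfd (ENSMUSG00000061780, chr10:79890853-79892655), cuts factor B to complete the convertase. Cfd had 0.432, 0.771 and 0.662 CPM in the controls, against 4.97 and 0.984 CPM in the deletion-labelled pair (log2 fold change 2.24, SE 0.73). The groups did not overlap, but only Ghr deletion replicate 1 stood far from the controls, and without it the log2 fold change was 0.65. These values rest on 7, 15 and 30 counts in the controls, against 219 and 39 counts in the deletion-labelled pair. The gap between Ghr deletion replicate 2 and the controls thus rests on few counts. Adipocyte genes were also higher. All 5 of them (Adipoq, Plin1, Cidec, Lep, Fabp4) were higher without overlap in the deletion-labelled pair (10.8% of all genes were), with summed levels of 1.91, 0.411 and 1.70 CPM in the controls, against 10.2 and 3.84 CPM in the deletion-labelled pair. Fabp4 was so only narrowly, at 1.943 CPM in Ghr deletion replicate 2 against 1.913 CPM in control replicate 1. Lep was at 0 counts in every control. Among the controls the order was the reverse, since control replicate 2 had the highest Cfd and the lowest adipocyte sum. That order came from Fabp4, which had 1.913, 0.154 and 1.235 CPM in the controls. The other adipocyte genes had only 0 to 9 counts in a control library and 13 to 27 counts in Ghr deletion replicate 2. Cfd divided by the sum ran from 0.226 to 1.88 over the 5 libraries. The part of adipocyte genes in the difference of Cfd was not tested.

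C3, the central protein of the cascade (ENSMUSG00000024164, chr17:57203970-57228136), had 65.3, 24.6 and 84.7 CPM in the controls, against 129.6 and 73.0 CPM in the deletion-labelled pair. Control replicate 3 lay between those libraries, so the groups overlapped (log2 fold change 0.80, SE 0.54). Cfp, properdin, which stabilises the alternative convertase, had 2.28, 3.90 and 1.83 CPM in the controls, against 2.61 and 1.56 CPM in the deletion-labelled pair. Properdin overlapped between groups too.

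**Figure D2:**
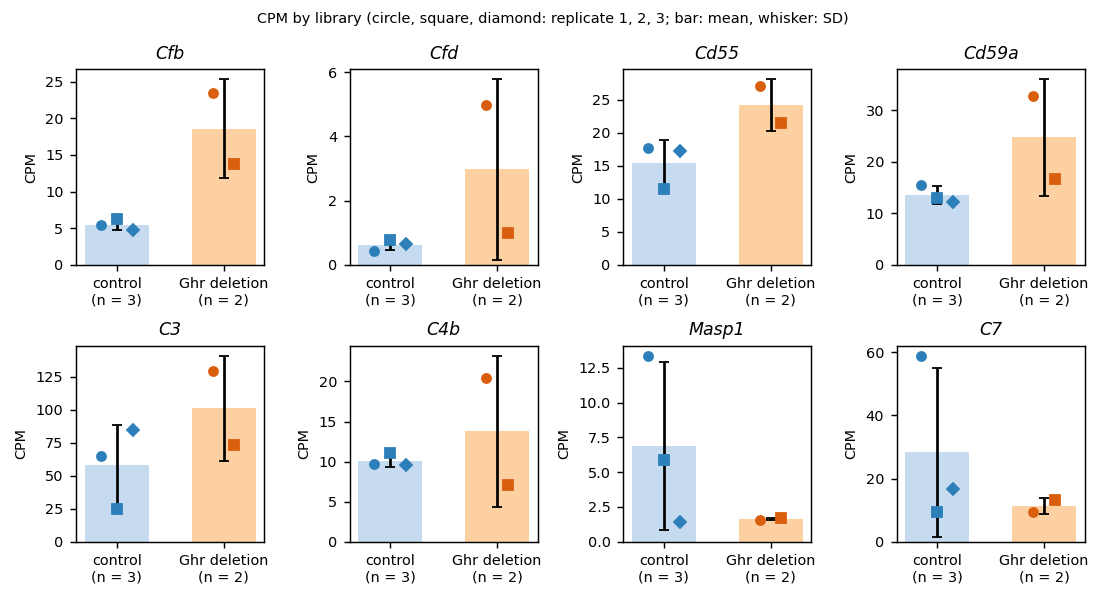
CPM of 8 complement genes by library, with each point a library, the bar the group mean and the whisker the SD (control n = 3, Ghr deletion n = 2). Cfb, Cfd, Cd55 and Cd59a have both Ghr deletion points above every control, C3 and C4b overlap, and Masp1 and C7 are spread widely among the controls.

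Regulators on the cell surface included the remaining members without overlap. Cd59a (ENSMUSG00000032679, chr2:104095801-104115354) encodes the membrane inhibitor of the pore. It had 15.4, 12.9 and 12.2 CPM in the controls, against 32.8 and 16.7 CPM in the deletion-labelled pair (log2 fold change 0.87, SE 0.32). Ghr deletion replicate 2 was only just above control replicate 1, and without Ghr deletion replicate 1 the log2 fold change was 0.30. Cd55 (ENSMUSG00000026399, chr1:130439027-130462744) encodes decay-accelerating factor, which dismantles C3 convertases. It had 17.7, 11.5 and 17.2 CPM in the controls, against 27.04 and 21.5 CPM in the deletion-labelled pair (log2 fold change 0.65, SE 0.26), and it kept a log2 fold change between 0.47 and 0.81 whichever library was left out. Divided by Epcam in TPM, Cd55 ran from 0.1001 to 0.1496 in the controls and was 0.128 and 0.136 in the deletion-labelled pair, and Cd59a ran from 0.112 to 0.181 and was 0.225 and 0.153, so on that measure both overlapped. Epcam itself was higher without overlap, at 93.1 to 137 CPM in the controls, against 185 and 140.0 CPM in the deletion-labelled pair. The other 3 epithelial genes overlapped, with log2 fold changes of 0.10 (Cdh1), -0.21 (Krt8) and 0.15 (Krt18), against 0.52 for Epcam. The overlap of both ratios therefore holds for Epcam only, and ratios to the other epithelial genes are not given.

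Both genes have related copies, Cd59b (83.2% identical to Cd59a over 739 bases) and Cd55b (91.6% identical to Cd55 over 1157 bases). Cd55b had at most 1 count in a library. Cd59a and Cd59b together had 15.9, 13.05 and 12.4 CPM in the controls, against 33.3 and 17.01 CPM in the deletion-labelled pair, also without overlap. Cd59b made up little of that sum, so the sum largely repeats the values of Cd59a.

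The abundant regulators overlapped between groups. Cr1l (ENSMUSG00000016481, chr1:195097382-195131586) had 71.8, 65.9 and 82.9 CPM in the controls, against 120.4 and 80.5 CPM in the deletion-labelled pair. Serping1 (ENSMUSG00000023224, chr2:84765387-84775444) had 67.8, 25.7 and 62.9 CPM in the controls, against 109 and 56.1 CPM in the deletion-labelled pair. For both genes Ghr deletion replicate 1 was the highest library and Ghr deletion replicate 2 lay among the controls. Cd46, the membrane cofactor, ranged only from 6.58 to 10.4 CPM over all 5 libraries. Cd59b, the second CD59 gene of the mouse, stayed between 0.154 and 0.499 CPM. Cfi, the protease factor I, had 2.22 CPM in Ghr deletion replicate 1 and 0.202 to 0.904 CPM elsewhere, and C4bp, which binds C4b, had 0 to 1.34 CPM. All 8 regulators had a log2 fold change above 0 (median 0.65, against -0.006 for all genes tested), but with log2(TPM + 1) Cd46, Cd59b, Cfi and C4bp were below the all-gene median, and without Ghr deletion replicate 1 Cd46 and Cfi were on the lower side.

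The recognition molecule C1q is built from 3 chains whose genes lie together on chromosome 4 within 18.7 kb. The chains kept similar proportions, with C1qa giving 41.3% to 48.3%, C1qb 30.7% to 38.2% and C1qc 15.8% to 24.1% of their summed TPM. C1qa had 14.7, 7.71 and 8.60 CPM in the controls, against 10.3 and 6.81 CPM in the deletion-labelled pair. The log2 fold changes were -0.27 for C1qa, -0.15 for C1qb and -0.05 for C1qc (SE 0.36 to 0.40). With log2(TPM + 1) each was instead above the all-gene median, so no direction held across scalings. All 7 macrophage markers (Adgre1, Csf1r, Cd68, Cd163, Mrc1, Lyz2, Fcgr1) were detected in every library and overlapped between groups, with a summed 49.8 to 107.5 CPM in the controls, against 161 and 66.1 CPM in the deletion-labelled pair. C1q divided by these markers was 0.3025, 0.3395 and 0.279 in the controls, against 0.156 and 0.259 in the deletion-labelled pair, so the ratio was lower in both of the pair than in each control, by a small margin in replicate 2. This ratio was chosen after the values were seen.

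C1s1 and C1ra encode the proteases that C1q activates. C1s1 had 76.4, 24.5 and 53.9 CPM in the controls, against 88.1 and 39.3 CPM in the deletion-labelled pair, and C1ra had 27.2, 13.3 and 18.6 CPM in the controls, against 39.2 and 17.1 CPM in the deletion-labelled pair. Both overlapped between groups. Their inhibitor Serping1 stood at 1.055 to 1.52 times the sum of both proteases in TPM. C1rl, a C1r-like protease, had 2.23 to 6.62 CPM and C2 had 4.50 to 11.9 CPM over the 5 libraries, with log2 fold changes of 0.20 (SE 0.55) and 0.10 (SE 0.52).

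Several classical pathway genes have near-identical copies, which matters for how reads were shared out. C1ra matches its copy C1rb at 97.9% over 2431 bases, with an identical run of 757 bases, and C1s1 matches C1s2 at 95.9% over 2643 bases. C1s2 had 39, 343 and 18 counts in the controls, against 127 and 931 counts in the deletion-labelled pair. C1rb held 90.6% of the counts of both copies in control replicate 2 and 53.2% in Ghr deletion replicate 2, against 1.52% to 8.13% in the other libraries. The summed CPM of both copies was 29.6, 141 and 18.9 in the controls, against 40.4 and 36.5 in the deletion-labelled pair, so the low level of C1ra in control replicate 2 depends on this sharing and is uncertain. For C1s1 and C1s2 together the levels were 78.8, 42.1 and 54.3 CPM in the controls, against 91.0 and 62.8 in the deletion-labelled pair. Control replicate 2 was thus the highest library for the C1r sum and the lowest for the C1s sum. The coding stretches below, from C1ra coding bases 1798 to 1857 and the aligned part of C1rb, hold the most differences of any 60-base window (11, in capitals) and show where reads can tell the copies apart (GENCODE M21 transcripts).
C1ra: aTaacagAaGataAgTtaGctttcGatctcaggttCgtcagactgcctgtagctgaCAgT
C1rb: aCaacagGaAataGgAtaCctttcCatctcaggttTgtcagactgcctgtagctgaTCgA

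C4b and C4a are copies of the C4 gene, whose product joins C2 in the classical C3 convertase. They match at 95.9% over 5378 bases, and the annotation lists C4a as a processed transcript with no coding sequence. The window with the most differences (13 of 60 bases) spans C4b coding bases 2705 to 2764.
C4b: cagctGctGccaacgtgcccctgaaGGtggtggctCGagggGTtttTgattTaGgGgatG
C4a: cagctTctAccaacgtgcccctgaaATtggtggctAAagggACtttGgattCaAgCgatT
C4b (ENSMUSG00000073418, chr17:34728380-34743882) had 9.75, 11.05 and 9.57 CPM in the controls, a tight set, and 20.5 and 7.07 CPM in the deletion-labelled pair. The pair thus lay on opposite sides of all controls, 2.90-fold apart. C4a had 0.706 to 2.77 CPM in the controls, against 0.476 and 0.757 CPM in the deletion-labelled pair (log2 fold change -1.20, SE 0.77, and -0.28 without control replicate 2), and it held 2.28% to 20.1% of the counts of both copies. Summed over both copies the levels were 10.6, 13.8 and 10.3 CPM in the controls, against 20.9 and 7.82 CPM in the deletion-labelled pair, and the split stayed.

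Cfb, C2, C4a and C4b lie within 169.9 kb in the class III part of the major histocompatibility complex on chromosome 17. Only 85 bases separate the annotated end of C2 from the start of Cfb. A read-through gene that overlaps Cfb and part of C2 (Gm20547) was assigned 0 counts in every library. Reads from sequence it shares with them can be assigned to Cfb or C2, so read-through was not tested. Of 14 tested genes in this neighbourhood outside complement, 13 had a log2 fold change below 0 (median -0.605), and 5 (Ehmt2, Skiv2l, Dxo, Stk19 and Neu1) were lower without overlap, or 35.7% against 12.5% of all genes tested. Nelfe, whose end lies 1 base from that of Cfb, had 12.7, 10.4 and 11.3 CPM in the controls, against 9.53 and 11.7 CPM in the deletion-labelled pair (log2 fold change -0.11, SE 0.22). Neu1, a lysosomal sialidase, had 74.5, 88.8 and 42.8 CPM in the controls, against 32.8 and 30.1 CPM in the deletion-labelled pair (log2 fold change -1.13, SE 0.34). None of these 14 genes had a log2 fold change above 0.15, as the map of fold changes by distance shows.

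**Figure D3:**
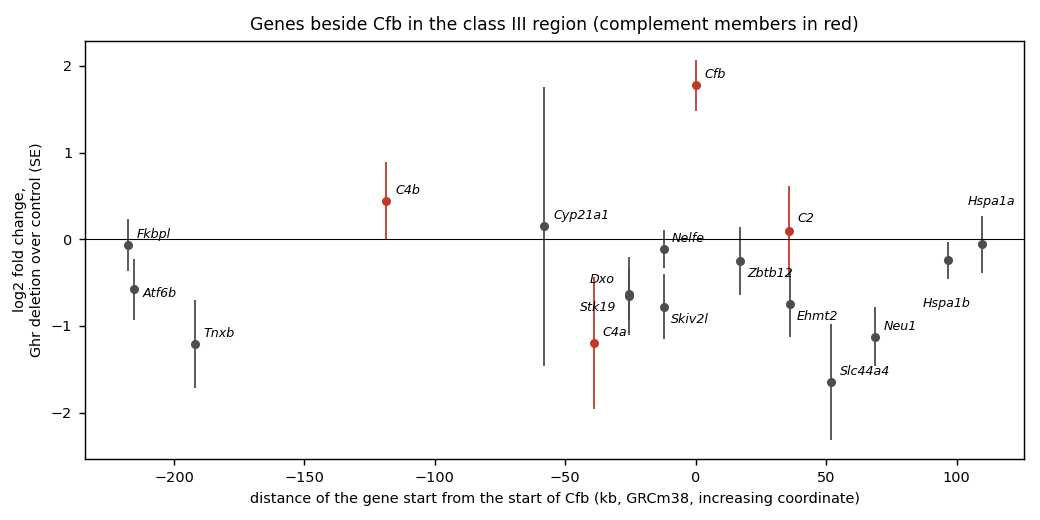
Log2 fold change (Ghr deletion over control, whisker SE) of genes of the class III region against the distance of their start from that of Cfb in kb, with complement genes in red and others in grey. Cfb stands at 1.77 while the 14 other genes lie at or below 0.15, C2 is at 0.10, C4b at 0.44 and C4a at -1.20.

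The lectin pathway and the pore showed their spread inside the control group. Masp1, a protease of the lectin pathway (ENSMUSG00000022887, chr16:23449417-23520815), had 13.4, 5.91 and 1.41 CPM in the controls, against 1.59 and 1.69 CPM in the deletion-labelled pair. Control replicate 3 was below both of those libraries, so the log2 fold change of -2.06 (SE 0.91) rests on control replicates 1 and 2, and against control replicate 3 alone it was 0.22. C7 (ENSMUSG00000079105, chr15:4988762-5063740), a pore component that stromal cells make, had 58.9, 9.35 and 16.8 CPM in the controls, against 9.55 and 13.1 CPM in the deletion-labelled pair. Control replicate 1 alone was high, and without it the log2 fold change moved from -1.32 to -0.21. C8g, the C8 gamma chain, had 0.822 to 1.42 CPM in the controls, against 1.07 and 1.09 CPM in the deletion-labelled pair. The other pore genes were near the limit of detection. Hc (complement C5) had 4 to 9 counts per library, C8b had 0, 3 and 5 counts in the controls and 0 in both of the deletion-labelled pair, and a count of 0 allows up to 0.0681 and 0.0757 CPM in those libraries (counting error only). Hepatocyte genes, a sign of liver-type RNA, were low and on the lower side, with all 5 (Alb, Apoa1, Ttr, Fgb, Serpina1a) lower without overlap (12.5% of all genes were) and a summed 9.26 to 28.3 CPM in the controls against 2.63 and 0.606 CPM. Their part in the low levels of C5 and the pore genes was not tested.

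The receptors for C3a and C5a were low and overlapped between groups. C3ar1, the C3a receptor, had 4.32, 2.26 and 2.82 CPM in the controls, against 3.86 and 2.45 CPM in the deletion-labelled pair. C5ar1, the main C5a receptor, had 0.514 to 0.926 CPM in the controls, against 1.11 and 0.252 CPM in the deletion-labelled pair, which again fell on opposite sides of all controls. C5ar2, a second C5a receptor, had 0.177 to 0.454 CPM. The log2 fold changes lay between -0.13 and 0.02, with SE of 0.42 to 0.73. The 95% interval for C5ar1 ran from -1.77 to 1.81. Neutrophil genes (S100a8, S100a9, Retnlg, Mpo) were near 0, at a summed 0 to 0.159 CPM over the 5 libraries.

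**Figure D4:**
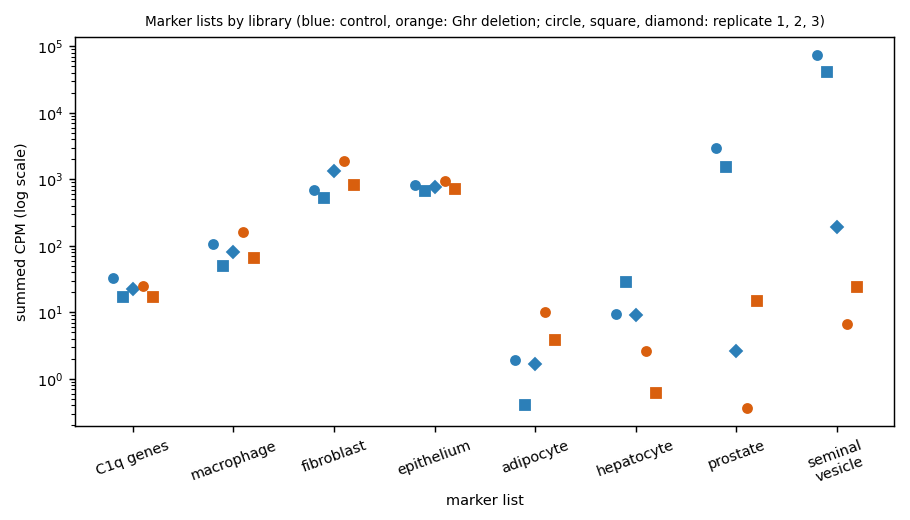
Summed CPM (log axis) of the 3 C1q genes and of 7 marker lists in each library, with controls in blue and Ghr deletion in orange and the symbol giving the replicate. Epithelial, macrophage and C1q sums overlap between groups, adipocyte sums are higher and hepatocyte sums lower in both Ghr deletion libraries, and prostate and seminal vesicle sums differ by orders of magnitude among the controls.

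Over the whole set, 4 of the 27 tested members (14.8%) were higher without overlap in the deletion-labelled pair, against 10.8% of all genes tested, and 0 were lower without overlap, against 12.5%. The median log2 fold change was 0.20 (18 above 0 and 9 below), against -0.006 over all 18590 genes tested. Nothing is read from these counts, since the contrast was used to pick the set. EdgeR's quasi-likelihood test called 0 members in either direction (0% of all genes), with 4 members and 792 genes at an unadjusted p under 0.05. DESeq2 called 1 member, Cfb (adjusted p = 0.00123), and called 0.108% of all genes higher, while limma-voom called 0.

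Other settings moved these counts along with those of all genes. With log2(TPM + 1), which shifted the all-gene median to 0.87, 9 members were called (12.3% of all genes) and 17 were higher without overlap (78.5% of all genes). With log2(TPM + 0.1), 2 members were called, Cfb and Cfd (3.94% of all genes), and the same number as before, 17, did not overlap. Cfb, Cfd, Cd55 and Cd59a stayed above the all-gene median under each of the 5 other scalings and units tried, as did C1ra, C1s1, C2, C4b, C3, Cr1l and Serping1, whose groups overlapped. These settings reuse the same libraries and lend no independent support. Without Ghr deletion replicate 1, 5 members were higher (21.2% of all genes) and 8 lower (20.5%) without overlap, and without Ghr deletion replicate 2, 18 were higher (23.7%). Against control replicate 3 alone, the log2 fold changes were 1.98 for Cfb, 2.17 for Cfd, 0.50 for Cd55 and 1.03 for Cd59a, with 8 members higher (32.8% of all genes) and 2 lower (31.8%) without overlap. With the replicate number as a block, 3 members were called (6.06% of all genes).

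Most members were higher in Ghr deletion replicate 1 than in Ghr deletion replicate 2. Ghr deletion replicate 1 was the highest of all 5 libraries in 17 of the 27 tested members and exceeded Ghr deletion replicate 2 in 22, with a median ratio of 1.70. It lay above every control in 17 of the 27. Over all genes that share was 23.7%, taken from the fit without Ghr deletion replicate 2, which had its own filter and scaling. Ghr deletion replicate 2 lay within the control range in 15 members and below every control in 7. Over all genes the latter share was 20.5%, taken likewise from the fit without Ghr deletion replicate 1. Control replicate 2 was the lowest library in 13. All-gene shares for the other counts were not worked out, so none is read as particular to complement. The median spread among the controls, highest over lowest, was 1.98-fold. Fibroblast markers (Col1a1, Col1a2, Pdgfra, Dcn, Lum) had a summed 701, 524 and 1329 CPM in the controls, against 1863 and 814 CPM in the deletion-labelled pair, with the same library highest and the same lowest, and their part in the levels of the members was not tested.

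**Figure D5:**
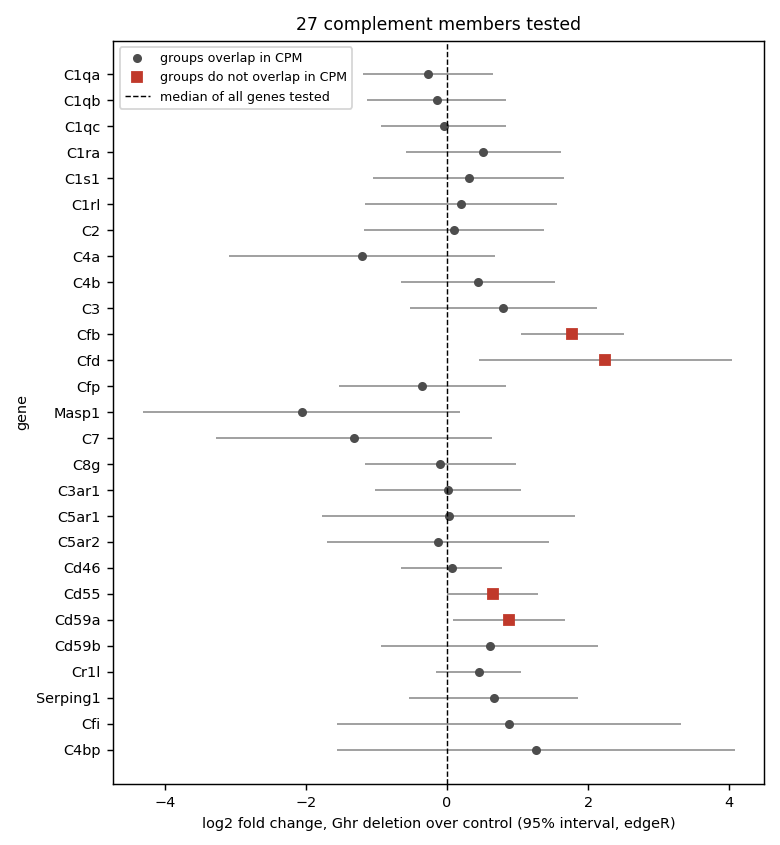
Log2 fold change (Ghr deletion over control, edgeR) with its 95% interval for the 27 tested members, with red squares where the groups do not overlap in CPM and a dashed line at the median of all genes. Cfb (1.77) and Cfd (2.24) lie farthest to the right, and Masp1 (-2.06) and C7 (-1.32), which vary among the controls, have wide intervals on the left.

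Other complement genes, outside the 33, gave 1 of 17 tested members higher (Susd4) and 1 lower (Colec11) without overlap, or 5.88% each, against 10.8% higher and 12.5% lower of all genes tested, with a median log2 fold change of 0.21. Clu, clusterin, a soluble inhibitor of the pore and an abundant epithelial transcript, had 267, 183.1 and 2368 CPM in the controls, against 6193 and 1874 CPM in the deletion-labelled pair, so control replicate 3 was among them and the controls spanned a wide range. Calr, calreticulin, which binds C1q, had 714, 441 and 507 CPM in the controls, against 594 and 487 CPM in the deletion-labelled pair. C1qbp and Colec12, a C1q-binding protein and a membrane collectin, also overlapped, with log2 fold changes of 0.17 (SE 0.32) and 0.63 (SE 0.52). Cr2, the receptor for C3 fragments on B cells, was named after its values were seen. It had 0.988, 2.36 and 33.4 CPM in the controls, against 37.3 and 30.8 CPM in the deletion-labelled pair, so control replicate 3 again lay with the pair, while the B cell genes Cd79a and Ms4a1 stayed at or below 0.308 CPM in every library.

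Cytokines known to induce factor B and C3 were scarce. Il6 had 0 counts in all 5 libraries, Ifng had 4 counts in control replicate 1 and 0 elsewhere, and Tnf and Il1b reached at most 0.370 and 0.580 CPM. Of 18 tested cytokine and acute-phase genes edgeR called 0 in either direction. Ifngr1, Lcn2 and Gbp2 were higher without overlap (16.7%, against 10.8% of all genes) and Ifngr2, Nfkb1, Rela and Orm1 lower (22.2%, against 12.5%), with a median log2 fold change of -0.05. Lcn2, lipocalin 2, an epithelial acute-phase protein, had 28.8, 17.005 and 73.3 CPM in the controls, against 451 and 83.3 CPM in the deletion-labelled pair (log2 fold change 2.75, SE 0.87). Ghr deletion replicate 1 stood far above the rest, and replicate 2 just above control replicate 3. Ifngr1, a chain of the interferon-gamma receptor, had 32.1, 26.7 and 34.6 CPM in the controls, against 44.5 and 35.9 CPM in the deletion-labelled pair. Stat3 and Il6st, which carry the interleukin 6 signal, overlapped, with log2 fold changes of 0.29 (SE 0.22) and -0.05 (SE 0.34).

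Promoter sequence is given as a description of the members. RefSeq (GRCm38.p6) gave a promoter for 25 of the 33 members, and the 250 bases before the start site are used here. C1qa, C2, C4a, C4b, Cfb, Cfi, Masp1 and Serping1 are not in that table. Of the members without overlap, those of Cfd (chr10:79890603-79890852, plus strand), Cd55 (chr1:130462745-130462994, minus strand) and Cd59a (chr2:104095551-104095800, plus strand) are shown, with capitals for any match to the motifs searched.
Cfd: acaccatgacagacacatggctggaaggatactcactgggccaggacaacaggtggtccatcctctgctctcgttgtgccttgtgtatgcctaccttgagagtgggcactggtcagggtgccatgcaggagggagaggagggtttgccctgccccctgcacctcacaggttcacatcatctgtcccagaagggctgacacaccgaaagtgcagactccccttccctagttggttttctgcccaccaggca
Cd55: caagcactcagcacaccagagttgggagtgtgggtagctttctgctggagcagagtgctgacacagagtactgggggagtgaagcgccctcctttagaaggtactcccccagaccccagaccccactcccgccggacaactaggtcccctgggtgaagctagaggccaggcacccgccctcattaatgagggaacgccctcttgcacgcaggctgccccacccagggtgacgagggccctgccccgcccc
Cd59a: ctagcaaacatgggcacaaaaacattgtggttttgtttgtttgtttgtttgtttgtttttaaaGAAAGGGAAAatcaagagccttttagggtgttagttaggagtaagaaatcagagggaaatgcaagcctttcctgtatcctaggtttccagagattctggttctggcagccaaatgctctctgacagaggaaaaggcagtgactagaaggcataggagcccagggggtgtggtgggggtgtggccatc
Both strands were searched for a STAT motif (TTCNNNGAA), an NF-kB motif (GGGA, any base, TTTCC), an interferon-stimulated response element (GAAA, any 2 bases, GAAA), a C/EBP motif (TTGCNNAA) and a TATA box (TATAAA). The only match in the 3 sequences is an interferon-stimulated response element in Cd59a, a motif that 3.04% of 27025 promoters hold. The STAT motif, the type bound by the STAT5 factors that act below the growth hormone receptor, was in 3 of 25 member promoters (C7, C8a and Masp2), or 12% against 7.18% of all promoters. The C/EBP motif was in 5 (20% against 9.55%), among them C3 and C1s1, and the NF-kB motif in 0 (0.337% of all). The 3 promoters differ in makeup, with 57.6% G and C in Cfd, 64% in Cd55 and 44.8% in Cd59a, and 2, 8 and 0 CG dinucleotides, against medians of 52% and 6 over all promoters.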

How the data were processed

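RNA of frozen dorsolateral prostate was, per the labels' protocols, sequenced with the TruSeq Stranded Total RNA kit. Bcl2fastq 2.20.422, STAR 2.5.3a, RSEM 1.3.0 and GRCm38 are named in the submitters' processing notes. The annotation release is not given in the sources used here, nor is the strand setting, so members that overlap a gene of the opposite strand (Masp1, C8g, Masp2, C2, Cd55) are uncertain. Per the file headers, the authors deposited an expected count per gene, in which RSEM shares reads among similar genes, and TPM, which is scaled within each library.

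Titles gave the groups. Rounded counts were filtered with filterByExpr (18590 of 51912 genes kept), TMM-scaled and compared over all 5 libraries by edgeR 4.0.16 (quasi-likelihood test, R 4.3.3) with Benjamini-Hochberg adjustment at 0.05. Each SE is the log2 fold change over the square root of F. The labels call the samples biological replicates, and no exact test of 3 against 2 samples can give p below 0.2. Symbols matched 99.5% of identifiers, positions are from GENCODE M21, and copies were aligned with BLAST+ 2.17.0. The test was tested on simulated data for this comparison (18374 genes), where 1 simulation mixed all fold sizes and each size had 50 genes. Calls were 2 at 2-fold, 32 at 4-fold, 47 at 8-fold and 50 at 16-fold, with 15 false calls among unchanged genes, or more than the 0.05 threshold aims at. The simulated libraries varied at random around a shared level per gene, without the unevenness of tissue in the real ones. The least abundant genes were left unchanged. These numbers therefore do not say what share of true changes would be called in the real libraries, where edgeR called 0 genes.

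The members and lists were chosen with earlier results of these data known. Named are all members, by role, the neighbours of Cfb, and up to 4 genes of each other list by mean TPM. Genes outside this rule (Cr2, Susd4, Colec11, Cd79a, Ms4a1, Il6, Ifng, Tnf, Il1b, Gbp2, Ifngr2, Nfkb1, Rela, Orm1) were chosen after their values were seen, as were the ratios between genes. Smooth muscle, endothelial and T and B cell markers summed to 2019 to 6612, 58.9 to 110.4 and 0.110 to 3.33 CPM and overlapped. Basal markers summed to 70.03 to 91.7 CPM, with 2 of 3 genes lower without overlap (12.5% of all genes were), and of 3 tested proximal luminal genes 2 were higher and 1 lower. Alternatives were DESeq2 1.42.0, limma-voom and limma-trend on TPM (limma 3.58.1, pseudocounts 1 and 0.1), other scalings and filters, the 20 most abundant genes left out, libraries left out, and the replicate number as a block.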

Additional observations from a re-analysis of the deposited data

How the results depend on the processing

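With edgeR 0 genes were called higher and 0 lower. The numbers higher and lower were 20 and 61 with DESeq2, 2 and 0 with no low-count filter, 2234 and 60 on log2(TPM + 1), and 686 and 47 on log2(TPM + 0.1). With 1 library left out they ran from 0 to 15 higher and 0 to 33 lower, both extremes without control replicate 3. Complement members called were 0 with edgeR, 1 with DESeq2 (Cfb), 9 on log2(TPM + 1) (12.3% of all genes called) and 2 on log2(TPM + 0.1) (3.94% of all genes). Members higher without overlap were 4 (10.8% of all genes), and 17 with either TPM setting (78.5% of all genes). They were 8 without control replicates 1 and 2 together (32.8% of all genes). With 1 library left out they ran from 4 to 18, the most without Ghr deletion replicate 2 (23.7% of all genes). Members lower without overlap were 0 (12.5% of all genes). They ran from 0 to 8 with 1 library left out, the most without Ghr deletion replicate 1 (20.5% of all genes). Without control replicates 1 and 2 together they were 2 (31.8% of all genes). The cause of these shifts was not tested. The all-gene median was 0.585 with library size alone and 1.33 with log2(TPM + 0.1).

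With the replicate number as a replicate block, 552 genes were called higher and 574 lower, and 3 members were called (C3, Cfb and Masp1, with 6.06% of all genes called). Same-numbered libraries deviated together (correlations of 0.286 and 0.289 over genes), but nothing in the labels says what a number shares, and with 2 Ghr deletion libraries their deviations mirror each other.

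Cfb, Cfd, Cd55 and Cd59a kept a log2 fold change above 0 in all 17 settings, as did C3, Cr1l and Serping1, whose groups overlapped. For Cfb, Cfd, Cd55 and Cd59a both deletion-labelled libraries exceeded every control. Their sign with a library left out was thus largely set in advance and lends no support. Cfb ran from 1.34 without Ghr deletion replicate 1 to 2.11 without Ghr deletion replicate 2 among fits with 1 library left out, with an adjusted p of 0.00123 to 1 across the 17 settings. Without Ghr deletion replicate 1, 9 of the 27 members changed sign (C1ra, C1s1, C1rl, C2, C4b, C3ar1, C5ar1, Cd46 and Cfi). Where 1 library was left in a group, it was assumed to vary like those of the other group. Members under about 1 CPM rest on few counts, and their levels are limited by depth.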
